A study of Mus musculus with 24 samples.

Results

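The 8 genes *Sdc1*, *Tnfrsf17*, *Prdm1*, *Irf4*, *Xbp1*, *Mzb1*, *Derl3* and *Fkbp11*, which belong to the plasma cell program, were followed by name among the 39056 genes of the count table. They were not picked by a cut on their values, but earlier results of these data were known when they were chosen. Their levels were read in the 12 CD45+ libraries of 4 genotypes, scaled with and without the 422 immunoglobulin genes. All 8 were found in the table and all 8 passed the filter on low counts. RNA came from live hematopoietic (CD45+) cells and from the CD45- remainder of epithelium, endothelium and stroma, sorted from the ileum of C57BL/6 mice (C57BL/6 J in the study's methods) after removal of Peyer's patches. The mice were *Hoil1*+/+ or *Hoil1*-/- and carried floxed *Il4ra* alone (*Il4ra*flox/flox, called f/f) or together with *Vil1*cre (called dIEC), which drives recombination in intestinal epithelial cells. The CD45+ cells of dIEC mice are thus not the cells in which the Cre acts, and all mice, controls included, carried floxed *Il4ra*. Each of the 8 combinations of genotype and fraction had 3 libraries, 24 in all, from mice 9 to 9.9 weeks old (CD45+) or 9 to 10.3 weeks old (CD45-). CD45+ libraries are named by genotype and replicate, where the replicate number is only a name and ties no libraries together.

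Plasma cells arise from B cells and secrete antibody, in the gut mainly IgA joined by the J chain. IRF4 and BLIMP-1, the product of *Prdm1*, shut down the B cell program and switch on the plasma cell one, and XBP1 enlarges the secretory pathway. The endoplasmic reticulum of the mature cell is filled with chaperones and with proteins that remove misfolded chains, and its surface carries syndecan-1 (CD138, from *Sdc1*) and BCMA (from *Tnfrsf17*), the receptor for the survival factors APRIL and BAFF. None of these genes is expressed by plasma cells alone: *Sdc1* and *Xbp1* are active in epithelium, *Prdm1* and *Irf4* in T cells and myeloid cells.

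The CD45+ libraries held 14.9 to 76.8 M counts on genes (median 47.0 M), and immunoglobulin genes took 12.1 to 44.0% of them (median 20.4%). That share fell into separate ranges. It was 33.6 to 44.0% in 4 libraries, namely *Hoil1*+/+ f/f replicates 1 and 3, *Hoil1*-/- f/f replicate 3 and *Hoil1*-/- dIEC replicate 3, and 12.1 to 21.5% in the other 8. *Rbck1*, the gene of HOIL1, was at 79.5 to 137 CPM (counts scaled to a library size of 1e6) in the *Hoil1*+/+ and 4.72 to 13.9 CPM in the *Hoil1*-/- libraries, so each library matched the *Hoil1* part of its label. No gene here checks the *Il4ra* part in CD45+ cells. *Ptprc*, which encodes CD45, was at 228 to 664 CPM. The study left out *Hoil1*-/- f/f replicate 1 and *Hoil1*-/- dIEC replicate 3 from this fraction, and the comparisons give the values of the 10 remaining libraries beside those of all 12. *Xist*, which is transcribed from the inactive X chromosome and was looked at after the values were seen, had 0 counts in 5 libraries, 16 and 61 counts in *Hoil1*-/- dIEC replicate 1 and *Hoil1*+/+ f/f replicate 2, and 173 to 300 CPM by total counts in the other 5. Those with 173 to 300 CPM were *Hoil1*+/+ dIEC replicates 1 and 2, *Hoil1*-/- f/f replicates 1 and 2 and *Hoil1*-/- dIEC replicate 2. The labels used here give no sex. The study describes the CD45+ values it plotted as samples from individual mice.

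Among the surface receptors, *Sdc1* (ENSMUSG00000020592.14, GRCm38 chromosome 12, 8771323 to 8793715, plus strand) stood at 575, 142 and 538 CPM in *Hoil1*+/+ f/f replicates 1, 2 and 3, and at 155, 98.5 and 197 CPM in *Hoil1*+/+ dIEC. It stood at 94.9, 195 and 442 CPM in *Hoil1*-/- f/f and at 151, 108 and 453 CPM in *Hoil1*-/- dIEC. The 4 libraries above 400 CPM were the 4 with the highest immunoglobulin shares, and they belonged to 3 genotypes. *Tnfrsf17* (ENSMUSG00000022496.5, chromosome 16, 11313812 to 11320074, plus strand) stood at 71.6, 20.0 and 80.7 CPM in *Hoil1*+/+ f/f, at 20.3, 11.97 and 21.6 CPM in *Hoil1*+/+ dIEC, at 23.4, 41.5 and 62.0 CPM in *Hoil1*-/- f/f and at 21.4, 13.8 and 52.4 CPM in *Hoil1*-/- dIEC. The same 4 libraries were its highest, followed by *Hoil1*-/- f/f replicate 2. All 3 *Hoil1*+/+ dIEC libraries stayed below 22 CPM, as did 3 libraries of other genotypes.

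Of the transcription factors, *Xbp1* (ENSMUSG00000020484.18, chromosome 11, 5520659 to 5525893, plus strand) had the highest CPM of the 8 genes in every library. It stood at 1148, 365 and 1654 CPM in *Hoil1*+/+ f/f, at 438, 329 and 576 CPM in *Hoil1*+/+ dIEC, at 345, 423 and 988 CPM in *Hoil1*-/- f/f and at 534, 362 and 1150 CPM in *Hoil1*-/- dIEC. Again the 4 libraries rich in immunoglobulin lay above the other 8. *Prdm1* (ENSMUSG00000038151.13, chromosome 10, 44437177 to 44528501, minus strand) did not follow that order. It stood at 64.3, 98.1 and 238 CPM in *Hoil1*+/+ f/f, at 86.9, 68.9 and 126 CPM in *Hoil1*+/+ dIEC, at 25.05, 72.1 and 54.5 CPM in *Hoil1*-/- f/f and at 91.0, 71.7 and 38.5 CPM in *Hoil1*-/- dIEC. *Hoil1*-/- dIEC replicate 3, with an immunoglobulin share of 33.6%, had the second lowest *Prdm1* value of all. *Irf4* (ENSMUSG00000021356.9, chromosome 13, 30749226 to 30766976, plus strand) was the most even of the transcription factors, with 121, 114 and 238 CPM in *Hoil1*+/+ f/f, 107, 129 and 193 CPM in *Hoil1*+/+ dIEC, 53.9, 136 and 172 CPM in *Hoil1*-/- f/f and 152, 139 and 111 CPM in *Hoil1*-/- dIEC. *Hoil1*-/- f/f replicate 1, which the study left out, had the lowest value of both *Prdm1* and *Irf4*.

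Among the proteins of the endoplasmic reticulum, *Mzb1* (ENSMUSG00000024353.4, chromosome 18, 35647267 to 35649367, minus strand), a chaperone partner in antibody assembly, stood at 485, 199 and 454 CPM in *Hoil1*+/+ f/f, at 193, 125 and 242 CPM in *Hoil1*+/+ dIEC, at 156, 237 and 441 CPM in *Hoil1*-/- f/f and at 202, 115 and 580 CPM in *Hoil1*-/- dIEC. In the annotation used, 57.2% of its exon bases are shared, on the same strand, with a gene model that has no row in the count table, so its values may hold reads of both. The 4 libraries rich in immunoglobulin were again the highest, and their *Mzb1* values lay within 441 to 580 CPM.

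*Derl3* (ENSMUSG00000009092.5, chromosome 10, 75893413 to 75895941, plus strand), which acts in the removal of misfolded proteins from the endoplasmic reticulum, stood at 168, 59.9 and 184 CPM in *Hoil1*+/+ f/f, at 67.1, 36.0 and 88.8 CPM in *Hoil1*+/+ dIEC, at 36.5, 54.6 and 170 CPM in *Hoil1*-/- f/f and at 79.6, 39.0 and 138 CPM in *Hoil1*-/- dIEC. The same 4 libraries were the highest once more. *Fkbp11* (ENSMUSG00000003355.6, chromosome 15, 98724366 to 98728198, minus strand), a prolyl isomerase of the secretory pathway, was the lowest in CPM per kb and sorted the libraries differently. It stood at 34.3, 18.6 and 38.5 CPM in *Hoil1*+/+ f/f and at 33.2, 20.6 and 22.6 CPM in *Hoil1*-/- f/f, against 9.35, 10.2 and 10.7 CPM in *Hoil1*+/+ dIEC and 13.7, 9.69 and 28.4 CPM in *Hoil1*-/- dIEC. Every f/f library was above every dIEC library except *Hoil1*-/- dIEC replicate 3.

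**Figure D1:**
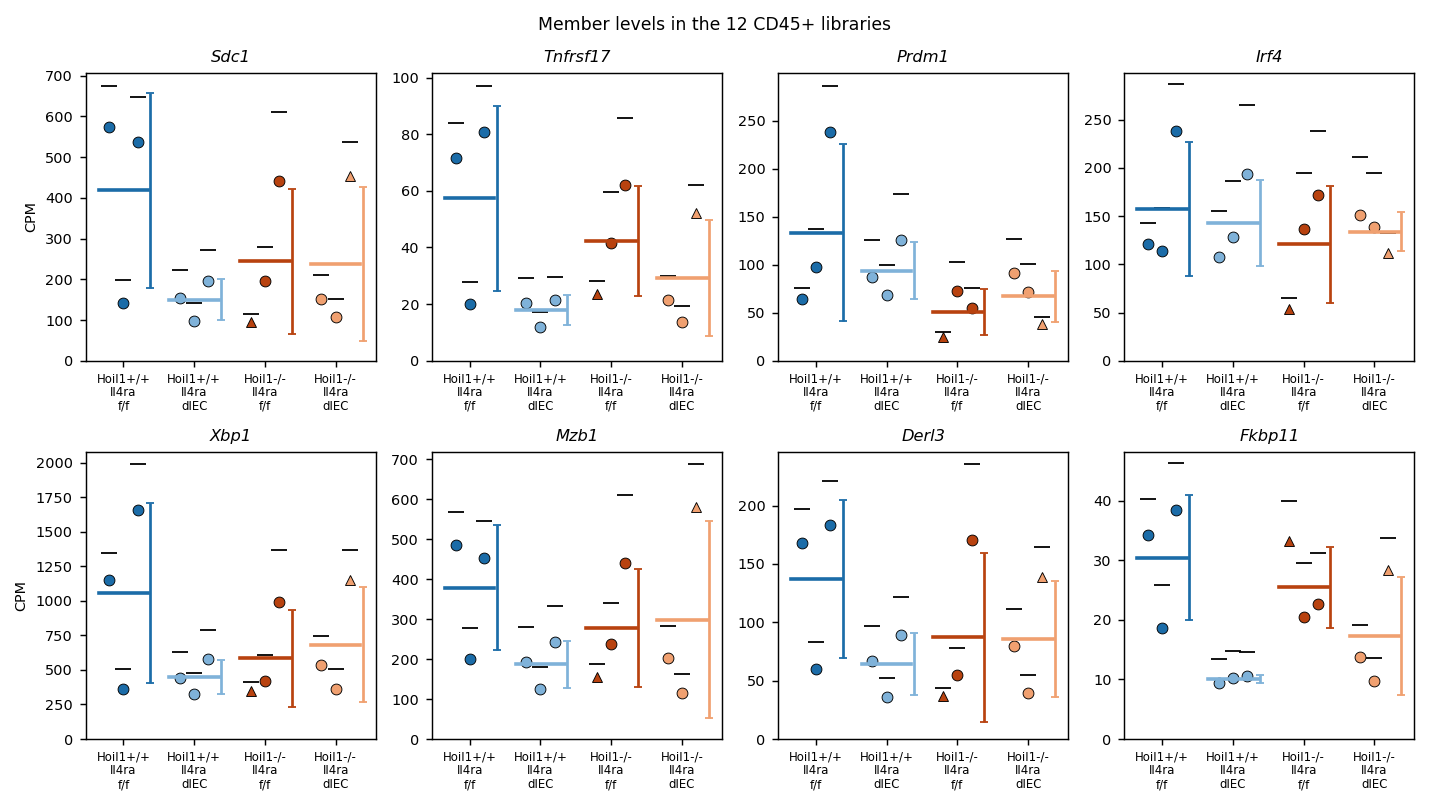
Level of each of the 8 genes in the 12 CD45+ libraries in CPM (TMM scaling), 1 panel per gene, by genotype. Circles are libraries the study kept, triangles the 2 it left out, black dashes the same libraries by total counts without immunoglobulin genes, the horizontal line the mean and the bar the SD (n = 3). *Sdc1*, *Tnfrsf17*, *Xbp1*, *Mzb1* and *Derl3* have high libraries in every genotype except *Hoil1*+/+ dIEC, where *Fkbp11* stays between 9.35 and 10.7 CPM.

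Divided by exon length, which allows levels to be compared between genes, the medians over the 12 libraries were 181 CPM per kb for *Mzb1*, 150 for *Xbp1*, 46.0 for *Sdc1*, 36.8 for *Derl3*, 27.6 for *Tnfrsf17*, 27.0 for *Irf4*, 12.9 for *Prdm1* and 7.23 for *Fkbp11*. The ranges of neighbours in this order overlapped in every case. The highest library exceeded the lowest by 9.49 times for *Prdm1*, 6.74 times for *Tnfrsf17*, 6.06 times for *Sdc1* and 4.11 to 5.09 times for the other 5. Within a genotype, the SD of log2 CPM was 0.99 for *Sdc1*, 0.92 for *Derl3*, 0.84 for *Tnfrsf17* and *Xbp1*, 0.82 for *Mzb1*, 0.73 for *Prdm1*, 0.58 for *Irf4* and 0.51 for *Fkbp11*. The median of that SD was 0.45 (quartiles 0.33 and 0.63) over the 8350 tested genes with a mean of at least 10 CPM. All but *Irf4* and *Fkbp11* were above the upper quartile of such genes. By total counts that quartile was 0.74, and of the 8 genes *Prdm1* alone, at 0.77, lay above it.

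Removing the immunoglobulin genes before scaling raised the level of each member by 1.30 to 1.37 times in every library under TMM scaling, which trims genes of extreme ratio. *Sdc1* then stood at 751, 185 and 724 CPM in *Hoil1*+/+ f/f, 209, 133 and 269 CPM in *Hoil1*+/+ dIEC, 126, 261 and 589 CPM in *Hoil1*-/- f/f and 204, 143 and 588 CPM in *Hoil1*-/- dIEC. The order of the 12 libraries for *Sdc1* stayed, except that the third and the fourth, nearly equal, changed places. With plain total counts the removal raised levels by 1.14 times in the library with the least immunoglobulin and by 1.78 times in the one with the most. By total counts with immunoglobulin kept, *Xbp1* stood at 891, 418 and 1123 CPM in *Hoil1*+/+ f/f, and without immunoglobulin genes at 1348, 509 and 1992 CPM. The fold between the highest and the lowest library of *Xbp1* was accordingly 3.09 by total counts, 4.80 by total counts without immunoglobulin genes and 5.03 by TMM. For *Tnfrsf17* these folds were 3.65, 5.61 and 6.74, and for *Fkbp11* 3.11, 3.43 and 4.11. Total counts that include immunoglobulin thus gave the smallest spread between libraries for all 3 genes.

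Without immunoglobulin genes in the scale, the 4 libraries with the larger immunoglobulin share held 588 to 751 CPM of *Sdc1*, against 126 to 269 CPM in the other 8. For *Xbp1* the ranges were 1318 to 2226 and 445 to 787 CPM, for *Mzb1* 589 to 752 and 153 to 331 CPM, for *Derl3* 180 to 247 and 48.4 to 121 CPM, and for *Tnfrsf17* 67.9 to 109 and 16.2 to 55.4 CPM. These 5 genes thus had separate ranges, and the share of all genes with separate ranges in this split was not computed. *Prdm1* (50.0 to 320 against 33.2 to 172 CPM), *Irf4* (144 to 320 against 71.5 to 264 CPM) and *Fkbp11* (30.2 to 51.7 against 12.6 to 44.0 CPM) had ranges that overlapped. *Jchain*, which links IgA and IgM chains, was at 37966 to 54713 CPM in the 4 libraries and 9553 to 27083 CPM in the 8. All 4 had 0 counts of *Xist*. *Sdc1* was at 142 to 575 CPM (median 442) in the 7 libraries with little or no *Xist* and at 94.9 to 195 CPM (median 108) in the 5 with more, whose immunoglobulin shares were 17.7 to 44.0% and 12.1 to 20.8%. The part of *Xist* in these levels was not tested. In bulk samples of this kind, fewer plasma cells and less RNA per plasma cell cannot be told apart.

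**Figure D2:**
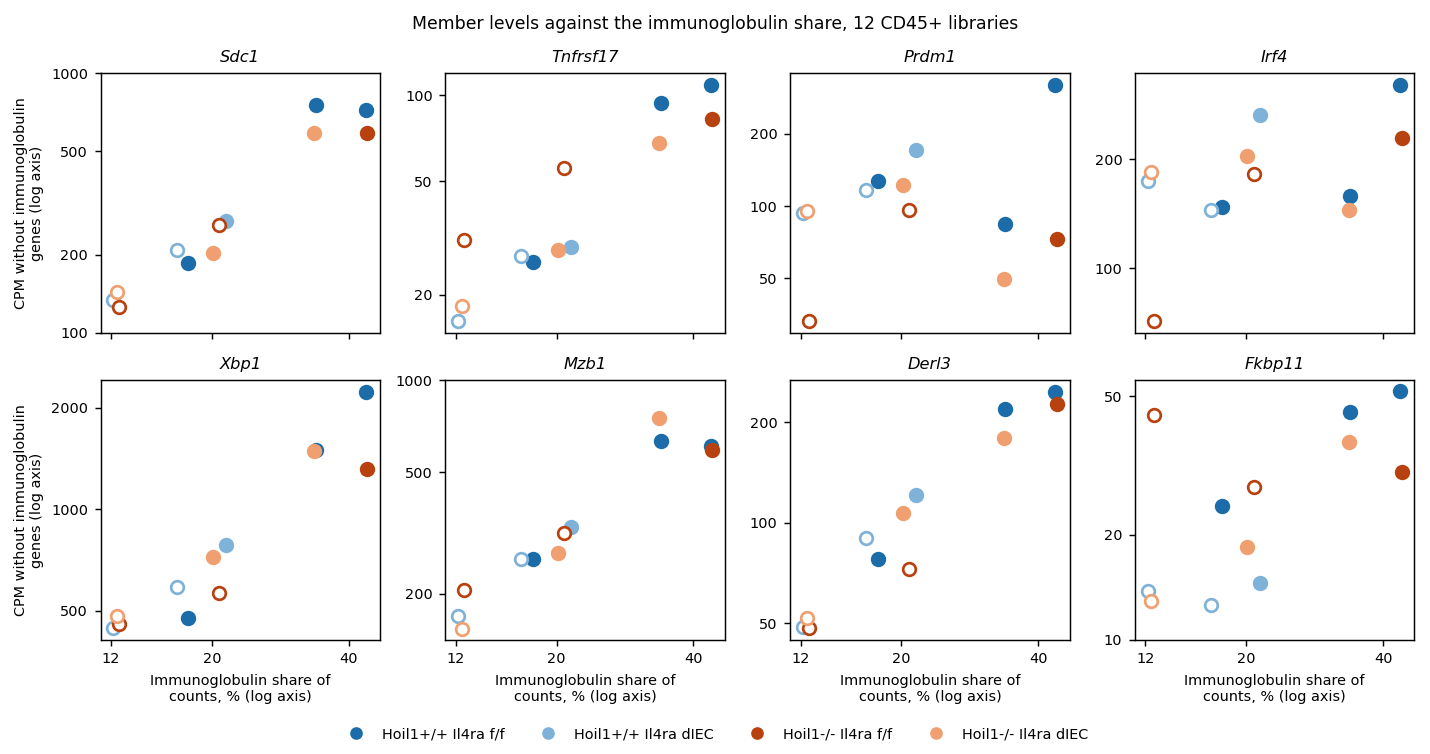
CPM of each gene, scaled without immunoglobulin genes, against the percentage of a library's counts on immunoglobulin genes, both on log axes, 1 point per CD45+ library. Filled points have *Xist* below 10 CPM and open points above it. The 4 libraries at 33.6 to 44.0% lie above all others for *Sdc1*, *Tnfrsf17*, *Xbp1*, *Mzb1* and *Derl3* but not for *Prdm1*, *Irf4* and *Fkbp11*.

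Because the immunoglobulin shares fell into separate ranges, correlations were computed within the 8 libraries of the lower range, between log2 levels without immunoglobulin genes and the share. The 8 tests were exact permutation tests, two-sided, adjusted by Benjamini-Hochberg over these 8 genes only. How many of all genes reach such values in these libraries was not computed. *Mzb1* had Pearson's r = 0.95 (exact permutation p = 0.000298, adjusted 0.00238) with Spearman's rho of 0.95. *Sdc1* had r = 0.95 (exact permutation p = 0.00288, adjusted 0.0115) and rho of 0.86, *Derl3* r = 0.90 (exact permutation p = 0.00893, adjusted 0.0238) and rho of 0.76, and *Xbp1* r = 0.81 (exact permutation p = 0.0142, adjusted 0.0285) and rho of 0.79. Without the 2 libraries whose share lay farthest from the median, r was 0.95, 0.94, 0.82 and 0.75 for these 4 genes. By rank, the adjusted exact permutation p was 0.00913 for *Mzb1* and 0.0429 for *Sdc1*, but 0.0588 for both *Derl3* and *Xbp1*, which did not pass. *Prdm1* had r = 0.64 (exact permutation p = 0.0471, adjusted 0.0753) and *Tnfrsf17* r = 0.68 (exact permutation p = 0.0672, adjusted 0.0896), which did not pass, and r was 0.87 and 0.28 without those 2 libraries. *Irf4* had r = 0.55 (exact permutation p = 0.173, adjusted 0.197), and 0.97 without the 2 libraries. *Fkbp11* had an r of 0.00 to 2 decimals (exact permutation p = 0.982) and rho of 0.33, and its r was -0.60 without the 2 libraries. The 8 libraries come from all 4 genotypes, and the permutations treated them as exchangeable. Those with little or no *Xist* were *Hoil1*+/+ f/f replicate 2, *Hoil1*+/+ dIEC replicate 3 and *Hoil1*-/- dIEC replicate 1. Their immunoglobulin shares were 17.7, 21.5 and 20.1%, against 12.1 to 20.8% in those with more *Xist*. The part of genotype and of *Xist* in these correlations was not tested.

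Among themselves within the same 8 libraries, *Sdc1*, *Tnfrsf17*, *Xbp1*, *Mzb1* and *Derl3* had r of 0.37 to 0.92 over their 10 pairs (median 0.79), the highest being that of *Xbp1* with *Derl3*. *Prdm1* and *Irf4* had r = 0.89 with each other and -0.06 to 0.74 with those 5 genes. *Fkbp11* had r of -0.29 to 0.57 with them, and -0.70 with both *Prdm1* and *Irf4*, where Spearman's rho was -0.12 and -0.19. These values describe 8 libraries that share a scale and include the library left out by the study in which *Prdm1* and *Irf4* were lowest. For *Prdm1* with *Irf4*, Spearman's rho was 0.52, well below r.

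**Figure D3:**
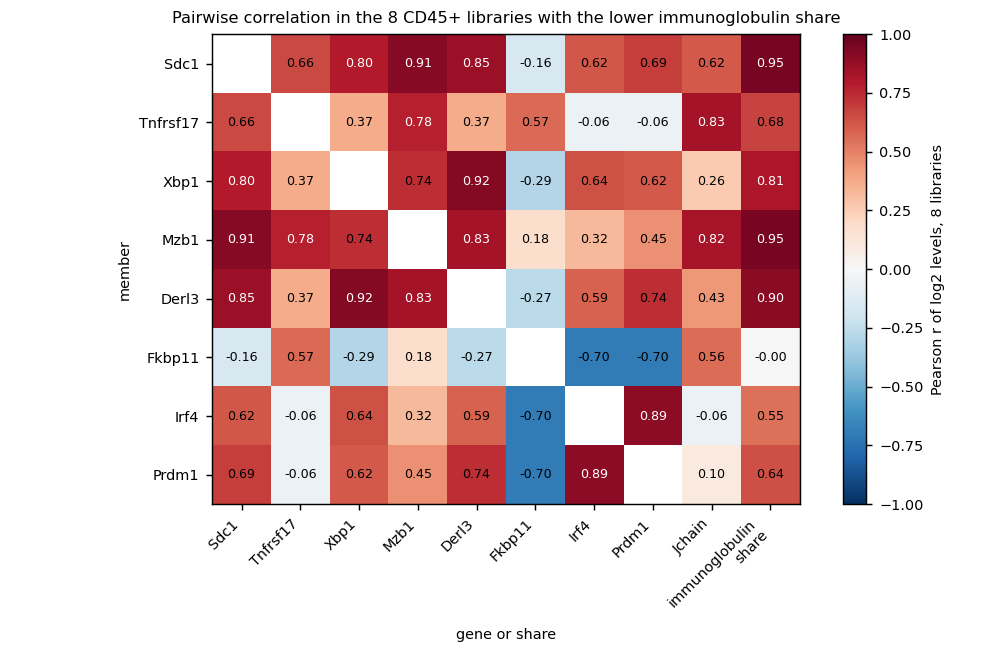
Pearson's r between log2 levels (without immunoglobulin genes) of the 8 genes, *Jchain* and the immunoglobulin share, over the 8 CD45+ libraries in the lower range of that share. *Xbp1* and *Derl3* reach 0.92, *Prdm1* and *Irf4* 0.89, and *Fkbp11* is negative or weak with most genes.

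XBP1 and ATF6 act on genes of the endoplasmic reticulum through the ERSE, CCAAT followed after 9 bases by CCACG. Because *Xbp1* and *Derl3* were the pair with the highest r, the 250 bases before the start of each are shown, from RefSeq (GRCm38.p6, plus strand, 5′ to 3′). Capitals mark CCAAT and CCACG on either strand, ATTGG and CGTGG being their reverse complements. Promoters were found for 7 of the 8 genes, with 2 for *Fkbp11*.
*Derl3*, chr10:75893148-75893397: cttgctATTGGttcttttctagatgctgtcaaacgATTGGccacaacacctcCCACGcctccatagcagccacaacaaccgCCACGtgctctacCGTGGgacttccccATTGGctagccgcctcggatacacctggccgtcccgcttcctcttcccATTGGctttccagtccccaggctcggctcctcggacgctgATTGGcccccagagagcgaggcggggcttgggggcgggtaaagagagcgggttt
*Xbp1*, chr11:5520391-5520640: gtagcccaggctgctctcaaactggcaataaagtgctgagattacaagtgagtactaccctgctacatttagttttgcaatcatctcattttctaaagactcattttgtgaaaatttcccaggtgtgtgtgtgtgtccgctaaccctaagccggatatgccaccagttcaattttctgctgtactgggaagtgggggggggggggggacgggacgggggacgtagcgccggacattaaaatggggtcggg

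The *Derl3* window held 5 CCAAT boxes, all on the strand opposite to the gene, and 3 CCACG, and the *Xbp1* window held neither. One of the CCAAT boxes of *Derl3* formed a full ERSE, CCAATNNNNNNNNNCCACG, on the opposite strand 156 bases before the start. Of 32851 promoters of the same length, 37 (0.113%) held the ERSE on either strand, 33.8% held CCAAT and 28.3% CCACG. Besides *Derl3*, CCAAT was found before *Sdc1*, *Prdm1* and 1 of the 2 starts of *Fkbp11*, but no ERSE. The ERSE-II (ATTGG, any base, CCACG; 0.0304% of promoters), the UPRE core (TGACGTG, 1.65%) and the PU.1 and IRF composite (GGAA and GAAA, 2 bases apart, 2.3%) were in none of the 8 windows, and GAAA repeated after 2 bases, the kind of repeat IRF proteins bind (2.98%), was found before *Tnfrsf17*. A match says only that these letters are in the window.

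For loss of *Hoil1*, taken as the mean of its effects in f/f and dIEC mice, 0 of the 8 genes passed the threshold (adjusted p under 0.05, edgeR's quasi-likelihood test over 16060 genes), where 2 genes in all passed (0.0125%) and 665 had an unadjusted p under 0.05. *Prdm1* had the largest difference of the 8. Its mean was 114 ± 64.7 CPM in the *Hoil1*+/+ and 58.8 ± 24.3 CPM in the *Hoil1*-/- libraries (SD, n = 6 each), which gave a log2 fold change of -0.94 (SE 0.37, 95% interval -1.75 to -0.13, adjusted p = 1.00 in edgeR). Its groups overlapped, since *Hoil1*-/- dIEC replicate 1 at 91.0 CPM exceeded 3 of the 6 *Hoil1*+/+ libraries. Without *Hoil1*+/+ f/f replicate 3, at 238 CPM, the log2 fold change of *Prdm1* was -0.59. Those of the other 7 genes lay between -0.24 (*Irf4*) and 0.26 (*Fkbp11*). Over all 12 libraries 3 of the 8 were higher in *Hoil1*-/- cells (median -0.09), and over the 10 of the study 0 of the 8 were (median -0.21). No member separated the *Hoil1* genotypes completely, which 0.249% of the tested genes did over 12 libraries and 1.13% over the 10 of the study. *Rbck1*, in the same fit, had a log2 fold change of -3.95 (SE 0.28, adjusted p = 0.000202 in edgeR).

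Within f/f mice, all 8 genes had a lower estimate in *Hoil1*-/- cells, with a median log2 fold change of -0.55 against 0 over all tested genes. In the 10 libraries of the study that median was -0.34. None passed in edgeR's test, where 1 gene did (0.00623%) and 502 had an unadjusted p under 0.05. *Prdm1* was again the farthest from 0, with means of 133 ± 92.0 CPM for *Hoil1*+/+ and 50.5 ± 23.8 CPM for *Hoil1*-/- (SD, n = 3 each) and a log2 fold change of -1.40 (SE 0.53, adjusted p = 1.00 in edgeR), which was -0.67 without *Hoil1*+/+ f/f replicate 3. By total counts, *Xist* was at 0 to 0.79 CPM in *Hoil1*+/+ f/f libraries and at 184 and 236 CPM in *Hoil1*-/- f/f replicates 1 and 2. With *Xist* as a covariate the f/f estimates of *Tnfrsf17*, *Mzb1* and *Derl3* turned positive. Those of *Sdc1*, *Prdm1*, *Irf4*, *Xbp1* and *Fkbp11* stayed negative. Within dIEC mice 6 of the 8 had a higher estimate in *Hoil1*-/- cells, with a median of 0.63 against -0.02, and again none passed in edgeR's test (1 gene passed, 0.00623%, and 719 had an unadjusted p under 0.05). The highest was *Fkbp11*, with means of 10.1 ± 0.7 CPM for *Hoil1*+/+ and 17.3 ± 9.9 CPM for *Hoil1*-/- (SD, n = 3 each) and a log2 fold change of 0.78 (SE 0.41, adjusted p = 0.955 in edgeR). In the 10 libraries of the study, 1 of the 8 was higher within dIEC mice and the median was -0.10, so the positive estimates rested on *Hoil1*-/- dIEC replicate 3. The 2 effects share no libraries, and their difference, the interaction, was positive for all 8 genes (0.29 to 1.46, median 1.10) with 0 members passing, where 0 of all genes passed in edgeR's test (0%) and 703 had an unadjusted p under 0.05. Without the 2 libraries the median interaction was 0.15.

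Between dIEC and f/f mice, as the mean of both *Hoil1* backgrounds, 7 of the 8 genes had a lower estimate in CD45+ cells of dIEC mice, with a median log2 fold change of -0.53 against -0.03 over all genes. None passed in edgeR's test (adjusted p of 0.864 to 1.00), where 0 of 16060 genes did (0%). At an unadjusted p under 0.05 there were 2 members, *Tnfrsf17* and *Fkbp11*, and 882 genes in all (5.49%). *Tnfrsf17* was at 49.9 ± 25.4 CPM (SD, n = 6) in f/f and 23.6 ± 14.7 CPM (SD, n = 6) in dIEC libraries, a log2 fold change of -1.11 (SE 0.42, 95% interval -2.02 to -0.19). *Fkbp11* was at 28.0 ± 8.4 and 13.7 ± 7.4 CPM (SD, n = 6 each), a log2 fold change of -1.08 (SE 0.29, 95% interval -1.71 to -0.44). The intervals of both leave out 0 but are not adjusted for the number of genes.

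In the 10 libraries that the study kept, all 8 estimates of the *Il4ra* effect were negative, with a median of -1.005 against -0.01 over all genes, and 6 members had an unadjusted p under 0.05. So had 10.6% of 17029 genes. None of the 8 passed after adjustment, where 1 gene did (0.00587%). The log2 fold change was -1.59 for *Tnfrsf17* (SE 0.38, adjusted p = 0.241 in edgeR), -1.36 for *Sdc1* (SE 0.41, adjusted p = 0.338 in edgeR), -1.21 for *Fkbp11* (SE 0.23, adjusted p = 0.183 in edgeR) and -1.03 for *Mzb1* (SE 0.33, adjusted p = 0.370 in edgeR). *Prdm1* and *Irf4*, at -0.05 and -0.09, were the members nearest to 0. *Fkbp11* was the only member whose f/f values (18.6 to 38.5 CPM) and dIEC values (9.35 to 13.7 CPM) did not overlap in these 10 libraries, as in 2.35% of the tested genes. Over all 12 libraries no member was free of overlap, as 0.299% of the genes were.

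**Figure D4:**
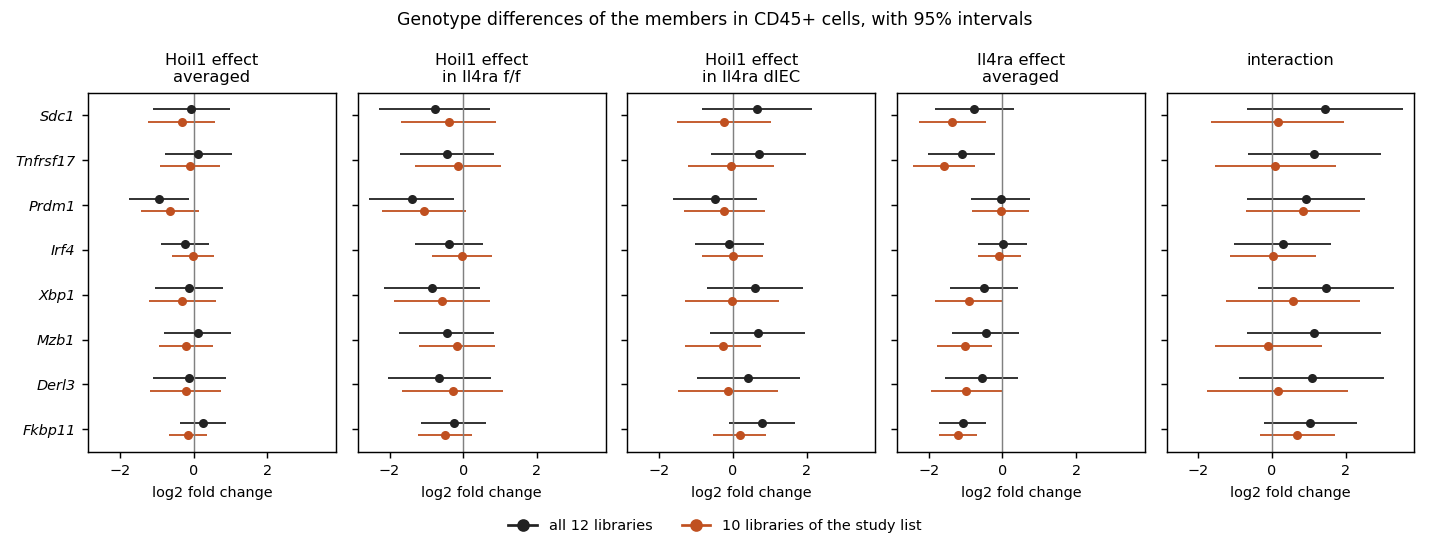
Log2 fold change of each gene with its 95% interval from edgeR in the 5 comparisons of CD45+ libraries, over all 12 libraries (black) and the 10 that the study kept (orange). The *Il4ra* effect is dIEC minus f/f and the *Hoil1* effect *Hoil1*-/- minus *Hoil1*+/+. For *Sdc1* the *Il4ra* effect moves from -0.76 over 12 to -1.36 over 10 libraries, and no gene passes in either set.

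The sum of 8 mast cell and eosinophil markers, scaled without immunoglobulin genes, was 993 to 1974 CPM in *Hoil1*+/+ f/f, 266 to 308 CPM in *Hoil1*+/+ dIEC, 659 to 1520 CPM in *Hoil1*-/- f/f and 378 to 1777 CPM in *Hoil1*-/- dIEC libraries, with *Epx* at 0 in all 12. The 8 macrophage and monocyte markers, none of them at 0 throughout, summed to 9525 to 17436, 5084 to 8459, 7819 to 22018 and 8814 to 15176 CPM in the same order. Both sums, from 10 marker lists, had their lowest values in *Hoil1*+/+ dIEC cells, as *Fkbp11* did. So did those of dendritic cells (from 3364 CPM), Paneth cells (from 76.6 CPM) and endothelium and stroma (from 106 CPM). The sums of innate lymphoid cells and goblet cells were lowest in *Hoil1*+/+ f/f cells. Those of T cells, enterocytes and erythroid cells were lowest in *Hoil1*-/- dIEC cells. The part of these cell types in the *Fkbp11* result was not tested. The sum of 15 B cell genes that plasma cells turn off was 918 to 2768, 1468 to 4074, 940 to 1730 and 951 to 2616 CPM in that order, with overlap between all genotypes.

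With *Xist* above 10 CPM as a covariate, which was tried after its values were seen, 0 members passed in any of the 5 comparisons of CD45+ libraries. The *Il4ra* effect over 12 libraries was then -1.05 for *Fkbp11* (SE 0.30), -0.97 for *Tnfrsf17* (SE 0.38) and -0.52 for *Sdc1* (SE 0.41), with adjusted p of 0.982 to 1.00 in edgeR. Removing immunoglobulin genes from scale and test moved no member's log2 fold change by more than 0.06 and changed the sign of none of the 40. With total counts in place of TMM the values moved by up to 0.60, and the median *Il4ra* effect of all genes moved to 0.23. In the 5 comparisons, edgeR's quasi-likelihood test called 0 to 2 genes, its likelihood ratio test 9 to 33 and DESeq2 63 to 103, and no member was among those called.

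The lists of related genes gave 0 calls in each of the 5 comparisons in edgeR's test. Of 30 other plasma cell genes, 4 had a higher estimate in dIEC cells, with a median *Il4ra* effect of -0.39. Those with the smallest p were *Cxcr4*, a homing receptor (log2 fold change 1.11), *Eaf2*, a transcription elongation factor (-1.0025), and *Prdx4*, a peroxidase of the endoplasmic reticulum (-0.74). Of 33 genes of the unfolded protein response and secretion, 6 were higher, with a median of -0.23. *Spcs1* of the signal peptidase was at -0.81, *Sec61g* of the translocon at -0.48 and *Atf4*, a stress transcription factor, at 0.54. Of the 15 B cell genes 14 had a higher estimate, with a median of 1.37, among them *Pax5*, the B cell identity factor (2.61), *Ms4a1*, which encodes CD20 (1.83), and *Spib* (1.77). The adjusted p of these genes lay between 0.86 and 0.89 in edgeR. Of 10 ligands for plasma cell survival and homing 4 were higher (median -0.34), and of 12 tested genes of immunoglobulin constant regions and J chain 6 were (median -0.20).

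For the interaction, 33 of 33 secretion genes had a positive estimate (median 0.78) and 24 of 30 other plasma cell genes did (median 0.52), as all 8 members did, while 3 of the 15 B cell genes did (median -2.15). The median over all tested genes was -0.04. None of these genes passed, and genes of one list are measured in the same libraries and are not independent. The lists were summarised over all 12 libraries only. In the 10 libraries of the study 7 of the 8 members had a positive interaction, with a median of 0.15.

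The genes whose levels over the 12 CD45+ libraries were most like the mean standardized profile of the 8, among 13020 genes with a mean of at least 1 CPM, were *Txndc5* (r = 0.98), *Ccr10* (0.97), *Edem2* (0.97), *St6gal1* (0.96), *Ckap4* (0.96), *Edem1* (0.95), *Txndc11* (0.95), *H13* (0.95), *Lman1* (0.95) and *AI506816* (0.95). *Txndc5*, a disulfide isomerase, ranged from 504 to 3726 CPM, and *Ccr10*, the receptor of the mucosal chemokine CCL28, from 25.2 to 227 CPM. Within the 8 libraries of the lower immunoglobulin range the 10 genes had r of 0.82 to 0.97. *Jchain* was the 21st at r = 0.91, and 32 genes (0.246%) exceeded 0.9. With the 10 libraries of the study, 4 of these 10 remained in the top 10 and the lowest rank was 46. The median r was 0.79 over the 30 other plasma cell genes, 0.60 over the 33 secretion genes, -0.26 over the 15 B cell genes and -0.03 over all genes.

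The CD45- fraction gives the level of each transcript, relative to a library's own counts, outside hematopoietic cells. It does not give the amount in the tissue, since cell numbers and RNA yields of the fractions were not used. All 8 genes were higher in CD45+ cells in edgeR's test over the 24 libraries, where 9043 of 17903 genes passed (50.5%), 4380 of them higher in CD45+ cells. By total counts in place of TMM, 2910 of 8640 called genes were higher. On a scale common to both fractions *Tnfrsf17* was at 13.6 to 91.8 CPM in CD45+ libraries and at 0 in 10 of the 12 CD45- libraries, with at most 2.43 CPM. *Irf4* was at 61.7 to 271 CPM against at most 6.51 CPM, with 0 in 6 CD45- libraries. *Mzb1* was at 131 to 641 CPM against at most 14.9 CPM, and *Derl3* at 41.0 to 209 CPM against at most 8.82 CPM. By relative level, these 4 genes were nearly limited to CD45+ libraries. Their fitted log2 fold changes of 5.93 to 9.63 depend on how the fit treats libraries at 0.

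*Xbp1* and *Sdc1*, by contrast, were well expressed in both fractions. *Xbp1* was at 374 to 1882 CPM (median 557) in CD45+ and 124 to 245 CPM (median 182) in CD45- libraries, without overlap, a log2 fold change of 2.06 (SE 0.25, adjusted p = 1.41e-06 in edgeR). *Sdc1* was at 109 to 642 CPM (median 201) against 34.2 to 136 CPM (median 63.1), with overlap, a log2 fold change of 2.08 (SE 0.29, adjusted p = 7.29e-06 in edgeR). *Prdm1* was at 28.7 to 270.5 CPM (median 82.1) against 6.39 to 73.9 CPM (median 29.3), a log2 fold change of 1.74 (SE 0.38, adjusted p = 0.000645 in edgeR). *Fkbp11* was at 10.8 to 43.7 CPM (median 22.1) against 2.60 to 35.5 CPM (median 7.11), a log2 fold change of 0.89 (SE 0.33, adjusted p = 0.0326 in edgeR). In the 21 libraries of the study, where 49.6% of 18778 genes passed, the call of *Fkbp11* was lost (log2 fold change 0.67, adjusted p = 0.146 in edgeR) and the other 7 passed.

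**Figure D5:**
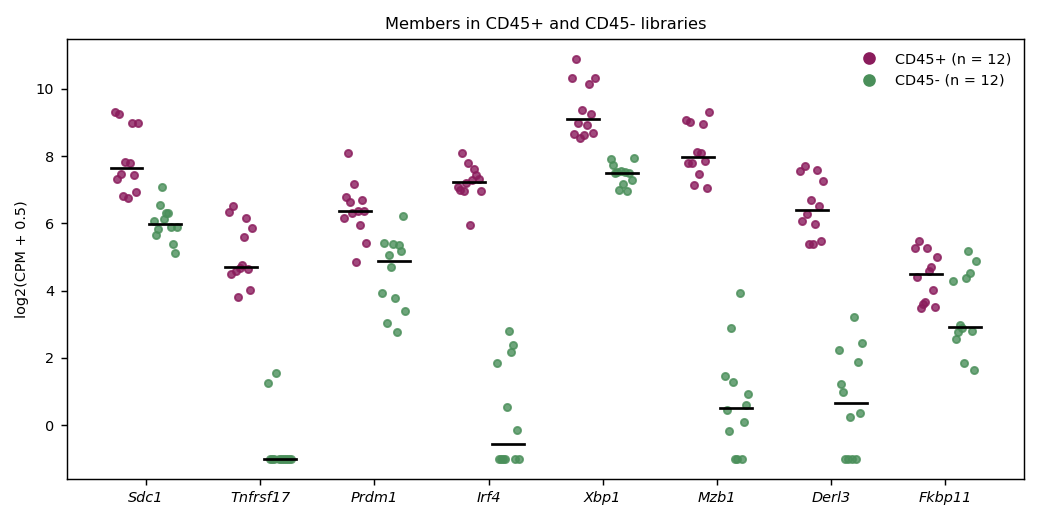
Log2(CPM + 0.5) of each gene in the 12 CD45+ and the 12 CD45- libraries on a common scale, 1 point per library, with a line at the median. *Tnfrsf17*, *Irf4*, *Xbp1*, *Mzb1* and *Derl3* do not overlap between the fractions, while *Sdc1*, *Prdm1* and *Fkbp11* do. Of all 17903 tested genes 50.5% passed between the fractions, and the share without overlap was not computed.

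Immunoglobulin genes took 0.00719 to 1.66% of the counts of CD45- libraries, which held 6.03 to 68.3 M counts (median 14.8 M), and *Ptprc* was at 0 to 16.1 CPM there against 252 to 755 CPM in CD45+ libraries. The CD45- library with the most immunoglobulin, *Hoil1*-/- f/f replicate 2, also had the most *Jchain* (851 CPM), *Mzb1* (14.9 CPM) and *Derl3* (8.82 CPM). Of the 30 other plasma cell genes, 26 were higher and 3 lower in CD45+ cells, and of the 15 B cell genes 14 were higher and 1 lower. Of the 33 secretion genes 24 were higher and 1 lower. Over all 17903 tested genes 4380 were higher, and 50.5% passed in either direction. Among the higher secretion genes were *Herpud1*, of the degradation complex of the endoplasmic reticulum (log2 fold change 2.04), *Hspa5*, the chaperone BiP (1.15), and *Dnajb9*, its cofactor (1.03). The 10 ligands divided, with 4 higher and 4 lower in CD45+ cells. The cytokine genes *Il10* and *Tgfb1* (2.35) were higher in CD45+ cells, whereas the chemokine genes *Ccl28*, *Cxcl12* (-5.13) and *Ccl25* (-4.19) were higher in CD45- cells. No fold is given for *Il10* and *Ccl28*, whose fitted values depend on libraries at or near 0.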

How the data were processed

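RNA from sorted CD45+ and CD45- ileal cells was sequenced from a polyA library kit. After cutadapt trimming and STAR alignment to mm10, the authors counted reads per ENSEMBL gene with featureCounts, and deposited these raw counts without normalization. The counting options are not given in the sources used here, so reads of overlapping genes may be split or lost. Gene symbols, positions and exon lengths came from GENCODE M21 (GRCm38). Of 39056 identifiers, 34299 matched with their version, 4573 without it and 184 not at all. Promoter sequences are those of RefSeq.

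From the counts, edgeR 4.0.16 in R 4.3.3 (TMM, filterByExpr with minimum count 10 and minimum total 15, a mean per group) gave two-sided quasi-likelihood tests with Benjamini-Hochberg adjustment over all tested genes and a threshold of 0.05, over 12 CD45+ libraries, and over all 24 for the fractions. The code was tested on simulated counts. CPM are counts scaled to a TMM-scaled library size of 1e6, unless said to be by total counts, and 3 counts correspond to 0.0391 to 0.201 CPM by total counts in CD45+ libraries. Correlations used log2(CPM + 0.5), scipy 1.17.1 and Python 3.11.15, and plots matplotlib 3.10.9. Alternatives were the libraries kept by the study, immunoglobulin genes removed, RLE or total counts, no filter, the likelihood ratio test, DESeq2 1.42.0, leaving out each library and, added after seeing the data, *Xist* as a covariate. The 8 genes and all lists were chosen with earlier results of these data known. Other genes named are *Rbck1*, *Ptprc*, *Ms4a1*, *Jchain*, and from each list those with the smallest p in the *Il4ra* effect or the comparison of fractions. The 10 genes most like the members were ranked by r. The study's sorting, staining and single-cell data were not used here, and 1 gene that the rule names is not reported here.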

Additional observations from a re-analysis of the deposited data

How the results depend on the processing

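No member passed in the 5 comparisons of CD45+ libraries under any alternative, where the smallest adjusted p was 0.0944 (DESeq2) and, leaving out 1 library, 0.174. Of 400 log2 fold changes under the other settings, 40 changed sign, and of 480 with 1 library left out, 39. All of these concern estimates that did not pass. No paired analysis was done, because the replicate numbers only follow the order of deposit and the labels tie no CD45+ library to a CD45- library. The fractions may come from the same mice, and the test between them treated all libraries as independent. At the depth of the CD45+ libraries, 3 counts were at most 0.201 CPM, below every value of the 8 genes.

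In the 10 libraries of the study, the *Hoil1* effect turned to -0.10 for *Tnfrsf17*, -0.21 for *Mzb1* and -0.15 for *Fkbp11*. Within dIEC mice it turned to -0.24 for *Sdc1*, -0.0575 for *Tnfrsf17*, -0.0243 for *Xbp1*, -0.26 for *Mzb1* and -0.13 for *Derl3*. The *Il4ra* effect of *Irf4* turned to -0.0860 and the interaction of *Mzb1* to -0.10. By total counts the *Hoil1* effect on *Fkbp11* within f/f mice was 0.0332, the *Il4ra* effect on *Prdm1* 0.28 (0.0330 without immunoglobulin genes) and the interaction of *Irf4* -0.0658.

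With *Xist* as a covariate over 12 libraries, the *Hoil1* effect within f/f mice was 0.11 for *Tnfrsf17*, 0.23 for *Mzb1* and 0.00823 for *Derl3*, that within dIEC mice -0.18 for *Derl3*, and the interaction -0.0937 for *Irf4*, -0.11 for *Mzb1* and -0.18 for *Derl3*. Over 10 libraries the averaged *Hoil1* effect was -0.0403 for *Tnfrsf17*, 0.0678 for *Irf4*, -0.13 for *Mzb1* and -0.12 for *Fkbp11*. Within f/f mice it was 0.0848, 0.17, 0.15 and 0.0724 for *Tnfrsf17*, *Irf4*, *Mzb1* and *Derl3*, and within dIEC mice -0.35, -0.17, -0.15, -0.41 and -0.37 for *Sdc1*, *Tnfrsf17*, *Xbp1*, *Mzb1* and *Derl3*. The *Il4ra* effect on *Prdm1* was 0.00881, and the interaction was -0.23, -0.25, -0.20, -0.56 and -0.44 for *Sdc1*, *Tnfrsf17*, *Irf4*, *Mzb1* and *Derl3*.

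Leaving out 1 library at a time, the averaged *Hoil1* effect ranged from -0.51 to 0.12 for *Sdc1*, -0.24 to 0.30 for *Tnfrsf17*, -0.44 to 0.10 for *Xbp1*, -0.35 to 0.31 for *Mzb1*, -0.59 to 0.0579 for *Derl3* and -0.0250 to 0.40 for *Fkbp11*. Within dIEC mice it ranged from -0.24 to 1.01 for *Sdc1*, -0.0580 to 1.04 for *Tnfrsf17*, -0.27 to 0.18 for *Irf4*, -0.0247 to 0.91 for *Xbp1*, -0.26 to 1.07 for *Mzb1* and -0.13 to 0.77 for *Derl3*, and the lowest values were mostly those without *Hoil1*-/- dIEC replicate 3. For *Irf4* within f/f mice it ranged from -0.71 to 0.0539, and its interaction from -0.19 to 0.57. The *Il4ra* effect ranged from -0.20 to 0.33 for *Prdm1* and -0.15 to 0.24 for *Irf4*. The cause of these changes was not tested.

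Between fractions, *Fkbp11* also lost its call with RLE size factors (log2 fold change 0.77, adjusted p = 0.0684 in edgeR) and by total counts (0.51, adjusted p = 0.193 in edgeR), and leaving out 1 library moved it from 0.75 to 1.27, with the call lost in 10 of 24 cases. The other 7 genes were higher in CD45+ cells under each of these settings.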

Other observations

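*Il5*, a cytokine gene among the ligands for plasma cell survival, had a fitted log2 fold change of 8.95 (SE 1.42, adjusted p = 0.283 in edgeR) in *Hoil1*-/- CD45+ cells, a value that depends on how the fit treats the 5 *Hoil1*+/+ libraries at 0. *Iglc1* and *Iglc2*, which encode constant regions of the lambda light chain, had *Il4ra* effects of -2.01 and -1.36, and *Ighm*, the constant region of IgM, had 1.09. None of them passed the threshold here. The study, with its own edgeR model and after removing outlier samples, did report *Il5* as differentially expressed between the *Hoil1* genotypes in CD45+ cells.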
